A study of Drosophila melanogaster with 54 samples.

Results

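The genes described here carry a CG number as their symbol in the annotation, and their RNA was lower in the sorted mesoderm of wild type Drosophila melanogaster embryos than in the remaining cells. They were chosen on an Affymetrix DrosGenome1 array, which measures RNA with probe sets of short oligonucleotides. Each probe set had to be annotated to 1 gene with a symbol of CG and digits. Its mean log2 value in wild type GFP positive arrays also had to be at least 0.7 below that of the wild type GFP negative arrays (1.62-fold) in each of sets 1, 2 and 3. This held for 75 probe sets of 74 genes, out of 4911 probe sets with a CG symbol (1.53%) and 14010 in the table. By the same threshold, 200 probe sets without a CG symbol were lower and 89 with a CG symbol were higher. The wild type levels that chose the genes are therefore given as a description, without a test.

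A CG number is the identifier that the fly genome annotation gives to a predicted gene, and it stays in use as the symbol where no other has been adopted. A few of these genes also have another name among their RefSeq synonyms. At the stage studied the mesoderm lies inside the embryo and is being divided into precursors of muscle, heart, fat body and blood cells. The cells around it form epidermis, nervous system, gut and germ line. Signals received through Wingless, Dpp, EGFR, FGFR and Notch pathways divide the mesoderm, and the genotypes of the study change these pathways. A gene low in sorted mesoderm may be used in any of the other tissues. In RNA of sorted cell populations, fewer cells of a type and less RNA per cell cannot be told apart.

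All embryos carried Twi-GAL4 and UAS-GFP, which mark cells that express Twist, and the cells were dissociated and sorted by fluorescence. Each of 18 groups had 3 arrays, lettered A, B and C, and wild type cells of both gates, GFP positive and GFP negative, were measured in each numbered set. All genotypes were measured in GFP positive cells. In set 1 these were UAS-lambda-Top (activated EGFR), UAS-lambda-Htl with UAS-Dof (activated FGFR) and mutants of spi, which encodes an EGFR ligand. In set 2 they were UAS-Arm s10 (activated Armadillo), UAS-Ras1 Act (activated Ras), both of these together (Arm+Ras), UAS-Pnt P2VP16 (activated Pointed), UAS-Tkv QD (activated Thickveins, a Dpp receptor) and wg mutants. In set 3 they were Dl mutants, lmd mutants and UAS-Notch intra (activated Notch). The activated proteins were made under Twi-GAL4, so in the Twist-expressing cells, whereas the loss of function mutants were mutant in all cells of the embryo. Embryos were aged 5.5 to 7.5 h at 25 °C, but the Dl, lmd and Notch embryos were older than their wild type, at 6 to 8 h. No label says that the 3 arrays came from separate collections, so the p-values cover only the spread among these arrays, which may be technical.

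Array medians lay at 4.57 to 4.62 in set 1, 4.17 to 4.27 in set 2 and 3.65 to 3.72 in set 3, so levels were compared within a set only. The labelled cell types were checked with marker lists. Of 7 measured mesoderm markers, 6, 4 and 5 were called higher in GFP positive cells in sets 1, 2 and 3 and none lower. Of 9 ectoderm and epidermis markers, 6, 4 and 6 were called lower and none higher, and of 10 neural markers 3, 2 and 3 were called lower and 0, 1 and 0 higher. Hemocyte markers were called higher in 5, 4 and 5 of 7 cases and lower in 1, 0 and 0. Germ cell markers were called lower in 2, 0 and 0 of 6 cases, and none of 4 endoderm markers was called. A call is an adjusted p under 0.05 in limma over 13966 probe sets. Of the genes the genotypes change, 5 were checked here. Egfr, htl and tkv were called higher where they were activated, by 3.41 and 0.70 in its 2 probe sets for Egfr, by 1.87 for htl and by 4.04 for tkv, whose other probe set differed by 1.61 without a call. The rise of htl was not particular to activated FGFR. Its probe set also differed by 1.56 in activated EGFR, 1.64 in Ras, 1.95 in Arm+Ras and 1.47 in Dl mutants. It was lower than wild type in Arm (-0.09), wg (-0.60) and Notch (-1.33). In spi mutants spi differed by 0.00 (9.35 to 9.39 against 9.31 to 9.40) and in lmd mutants lmd by 0.44 (8.77 to 9.05 against 8.31 to 8.67), neither called, and whether these alleles change RNA is not given in the sources used here.

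In wild type embryos CG18088 had the largest mean difference between the gates. Its GFP positive values were below the array medians and were not checked against background, so its differences and those of other dim genes are not exact folds. In set 1 its log2 values were 0.93, 1.16 and 3.57 in GFP positive cells against 3.80, 5.06 and 5.28 in GFP negative cells. In set 2 they were 1.08, 1.45 and 1.48 against 3.65, 4.12 and 4.52, and in set 3 -0.19, -0.17 and -0.15 against 3.34, 3.58 and 3.65. The groups did not overlap in any set, and set 1 array C was the highest of the 9 GFP positive arrays. CG43332 came next. Its GFP positive values were 5.02, 5.15 and 5.20 against 7.74, 7.79 and 7.86 in set 1. They were 2.80, 3.76 and 4.15 against 6.81, 7.02 and 7.05 in set 2, and 4.49, 4.58 and 4.61 against 7.08, 7.16 and 7.57 in set 3. Neither gene overlapped between the gates in any set, and their differences were -2.83, -2.76 and -3.69 for CG18088 and -2.67, -3.38 and -2.70 for CG43332 in sets 1, 2 and 3.

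The other genes with the largest least difference over the sets were CG3349, CG15345, CG13427, CG7294, CG11327, CG11409, CG31673, CG7384, CG3679 and CG10863, an aldo-keto reductase gene by its RefSeq synonym. CG13427 was bright in both gates and still far apart. It measured 8.59, 8.63 and 8.77 against 10.85, 10.88 and 11.13 in set 1, 9.56, 10.21 and 10.25 against 11.86, 11.996 and 12.26 in set 2, and 8.01, 8.14 and 8.30 against 10.47, 10.56 and 10.56 in set 3. Its gate difference was nearly the same in each set, at -2.29, -2.04 and -2.38. CG11409 was dimmer and overlapped between the gates in set 2. It measured 1.47, 1.94 and 2.06 in GFP positive cells of set 2 against 1.94, 4.31 and 4.57 in GFP negative cells, where the lowest GFP negative array lay within the GFP positive range.

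Over the 75 probe sets the median gate difference was -1.54, -1.30 and -1.24 in sets 1, 2 and 3, against 0.01, 0.01 and -0.00 over all probe sets tested. The lowest differences were -3.64, -3.74 and -3.69. The 3 GFP positive arrays all lay below the 3 GFP negative arrays for 58, 49 and 47 of the 75, against 15.4%, 14.1% and 11% of all probe sets, and for 34 of the 75 this held in all 3 sets. Since the rule used these arrays, nothing is read from these counts. For 14 probe sets the mean difference over the sets was at least 4-fold. Spread was wider in the gate where the genes were low, with a median SD of 0.55, 0.43 and 0.54 in GFP positive cells against 0.22, 0.29 and 0.30 in GFP negative cells.

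**Figure D1:**
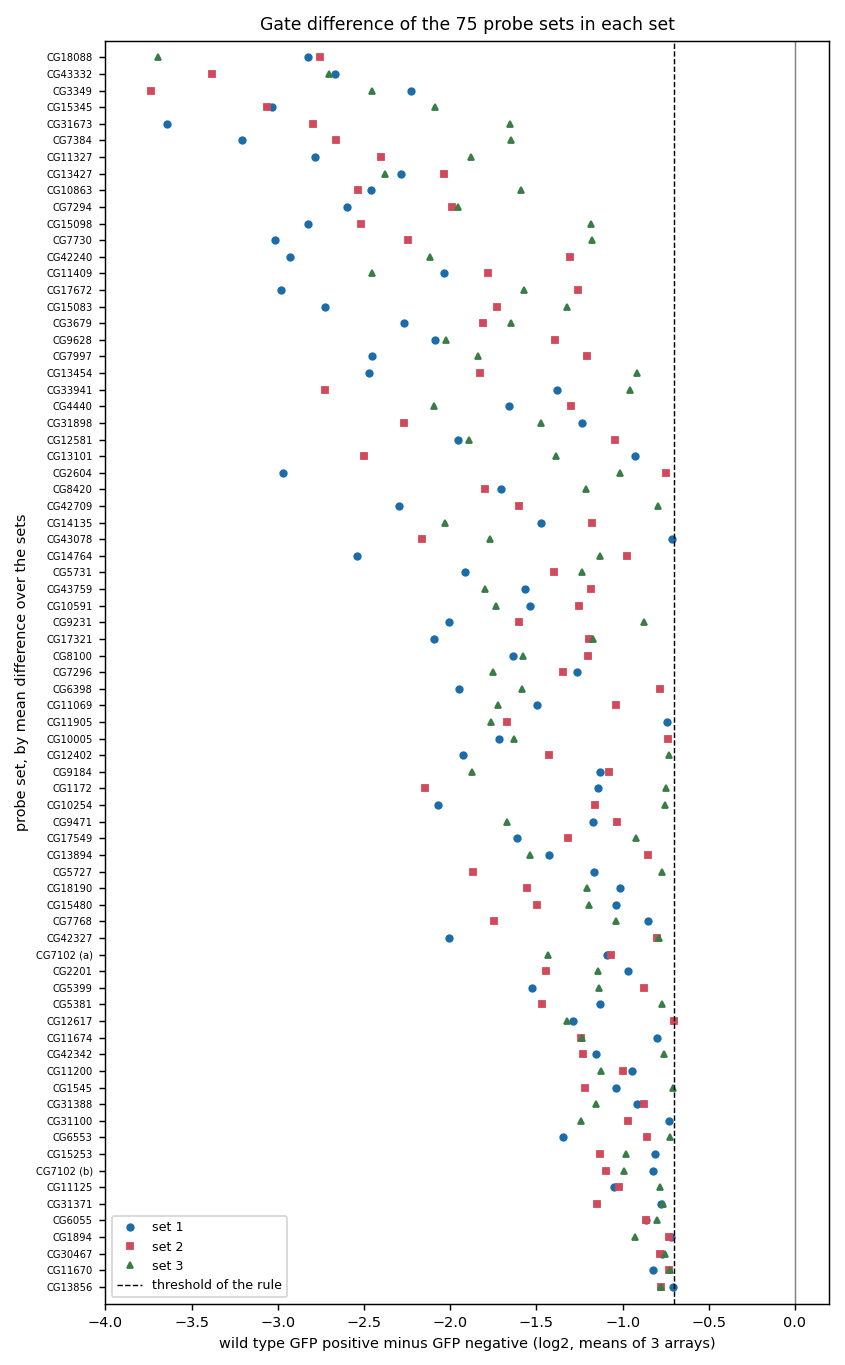
Wild type GFP positive minus GFP negative, in log2 units, for each of the 75 probe sets (rows, strongest mean depletion at the top) in sets 1 (circles), 2 (squares) and 3 (triangles). Every point is a difference of means of 3 arrays and lies left of the dashed line at -0.7 by the rule; CG7102 has a brighter (a) and a dimmer (b) probe set.

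The sets did not rank the genes alike. CG2604, a gene with a saccharopine dehydrogenase-like name in RefSeq, differed by -2.97 in set 1 but by -0.75 and -1.02 in sets 2 and 3. CG33941 differed by -1.38, -2.73 and -0.96. CG30467 was at the other extreme, with differences that spanned only 0.03 between its highest and its lowest set. In set 3 the actin control's 3′ minus 5′ difference, a sign of RNA integrity, was 1.00 to 1.34 in GFP positive and 0.66 to 0.83 in GFP negative arrays. In set 2 it was 0.88 to 1.00 and 0.74 to 0.82, while the same difference was lower in GFP positive arrays for eIF-4a, at 2.01 to 2.24 against 2.29 to 2.37, and for GAPDH, at 0.14 to 0.19 against 0.29 to 0.84. The hybridization controls lay at 9.01 to 9.49 and 10.09 to 10.43 in set 2. The part of these controls in the size of the depletion was not tested.

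At the threshold the boundary was gradual. Just inside lay CG43078 (least difference -0.72), CG13856 (-0.71), CG1545 (-0.70) and CG12617 (-0.70). Just outside lay CG30050 (-0.69), CG11227 (-0.69), CG11307 (-0.69) and CG7953 (-0.68). Of the 74 genes, 10 have 12 other probe sets that did not meet the rule, and 9 of these 12 had a mean difference below 0. The other probe set of CG43078 differed by 0.54 on average, that of CG42327 by 0.22 and that of CG10254 by 0.01, so for these 3 genes the depletion rests on 1 probe set and another probe set of the gene did not show it.

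A check that the rule did not use came from choosing genes in 2 sets and testing them in the third. For set 1, 155 CG probe sets met the rule in sets 2 and 3, and 43 of them (27.7%) were called lower in GFP positive cells of set 1, against 8.1% of all probe sets. For set 2, 30 of 172 (17.4%) were called lower against 6.67%. For set 3, 19 of 217 (8.76%) were called lower against 1.76%. In the opposite direction there were 0, 1 and 1 calls among these probe sets, against 7.42%, 8.18% and 2.56% of all. The set 1 count was 27 when only the brighter probe sets were tested, and most CG probe sets chosen by 2 sets had no call in the third.

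The 75 probe sets lay on all major chromosome arms. Of them, 22 (29.3%) were on 2L against 18.04% of all CG probe sets, 18 on 3R (24.0% against 24.5%), 16 on 3L (21.3% against 19.7%), 10 on 2R (13.3% against 18.4%) and 7 on X (9.33% against 18.3%). The remaining 2 were 1 on chromosome 4 and 1, CG15345, that RefSeq did not match by gene ID. The other 74 probe sets matched genes annotated as protein coding. Pairs of neighbouring genes with no protein coding gene between them were CG5731 with CG5727 and CG7296 with CG7294, both on 2L, and CG15098 with CG15083 on 2R. CG18088 and CG13101 had CG9541 as the only protein coding gene between them. None of the paired genes overlap.

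The genes were next followed in GFP positive cells of each genotype, against the wild type GFP positive arrays of the same set. These wild type arrays also chose the genes, and all genotypes of a set share them, so the genotype results of a set are not independent of each other. Over 12 genotypes there were 60 calls among 900 results (6.67%), against 5.89% over all probe sets. The pooled share was thus near the background. Loss of wg weighs on both shares, with 26.6% of all probe sets and 18.7% of the 75 called. The shares of each genotype are therefore given below. The lists chosen by the other 2 sets, given beside them, all include the 75. Their calls thus partly repeat those of the 75 and are not separate support. Of the 60, 43 were lower and 17 higher, while over all probe sets 5454 calls were lower and 4423 higher. At least 1 call was made for 28 of the 75 probe sets, at least 2 for 17, and none for 47. The 28 had a median mean signal of 4.95 and the 47 one of 2.87, and of the 45 probe sets below the median signal of the array 9 had a call.

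**Figure D2:**
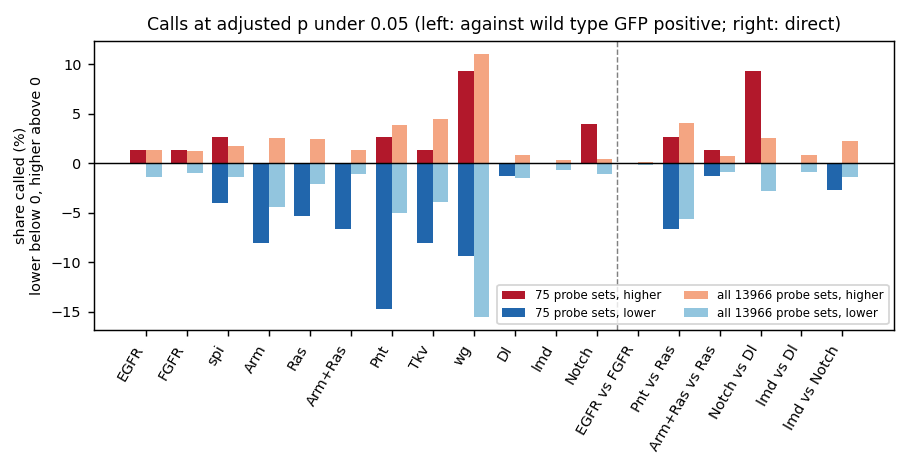
Share of probe sets called at an adjusted p under 0.05, in percent, higher drawn above 0 and lower below 0, for the 75 probe sets (dark) and all 13966 (light). Left of the dashed line each genotype is compared with wild type GFP positive cells of its set, right of it genotypes are compared directly; Pnt has 14.7% of the 75 lower against 4.98% of all, and Notch against Dl 9.33% higher against 2.55%.

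**Figure D3:**
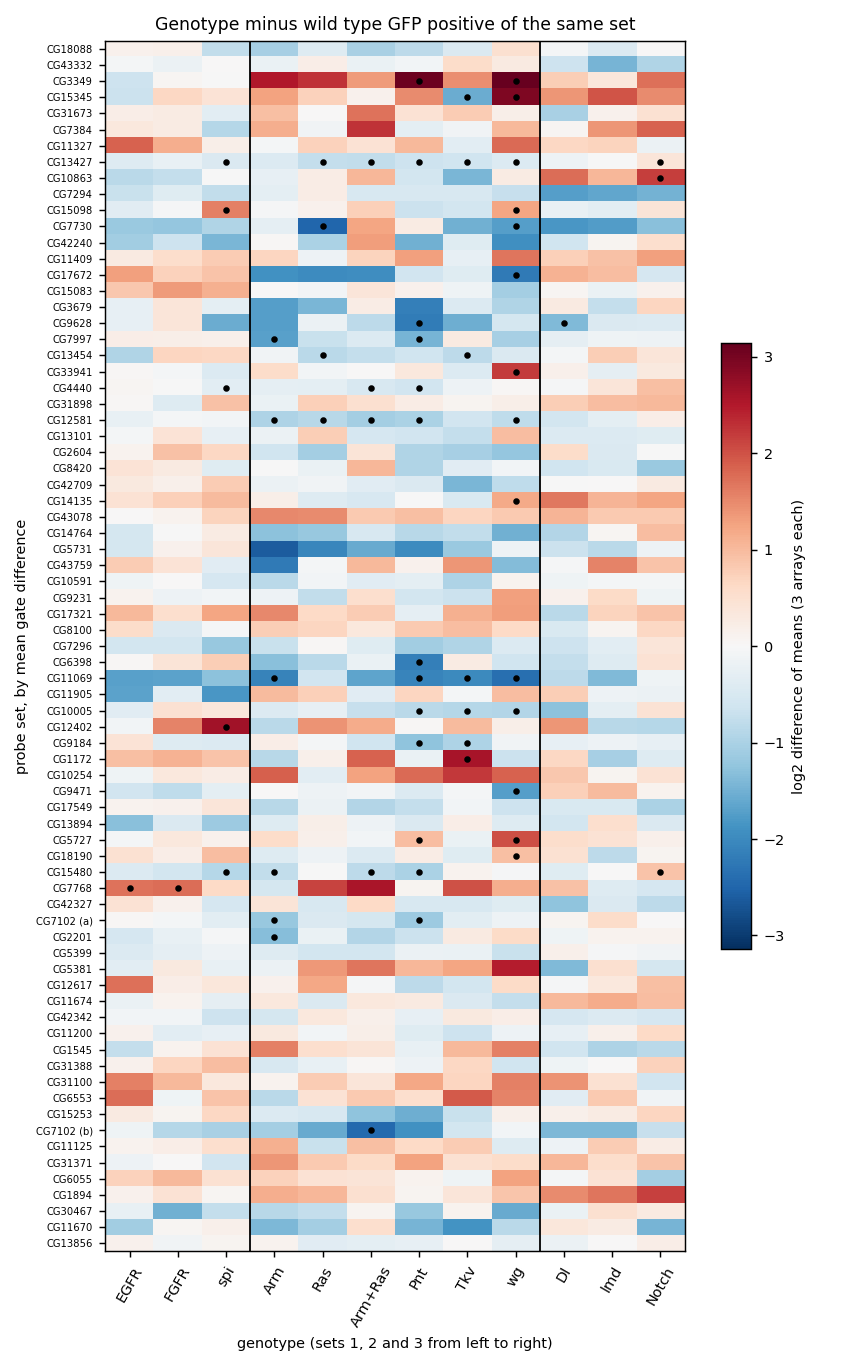
Difference from wild type GFP positive cells of the same set, in log2 units, for the 75 probe sets (rows, strongest gate depletion at the top) in 12 genotypes (columns, vertical lines between sets). Colours show the difference of means of 3 arrays each and black dots the 60 calls, of which CG13427 has 7 and CG12581 and CG15480 have 5 each.

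CG13427 was called in more genotypes than any other of the 75, lower in 6 and higher in 1. In set 2 its wild type GFP positive arrays measured 9.56, 10.21 and 10.25. The Ras arrays measured 9.24, 9.25 and 9.31 (difference -0.74 ± 0.15 SE, adjusted p = 0.0051), the Arm+Ras arrays 9.12, 9.23 and 9.34 (-0.77, adjusted p = 0.00535) and the Pnt arrays 9.19, 9.37 and 9.47 (-0.66, adjusted p = 0.00649). None of the 3 genotypes overlapped the wild type, although wild type array A (9.56) lay close to them. Tkv arrays were at 9.17, 9.42 and 9.54 (-0.63, adjusted p = 0.0113), just below that array, and wg arrays at 9.28, 9.70 and 9.75 overlapped it (-0.43, adjusted p = 0.0432). In set 1 it was lower in spi mutants, at 8.06, 8.17 and 8.39 against 8.59, 8.63 and 8.77 (-0.46, adjusted p = 0.0375). The call was lost in Pnt without wild type B (adjusted p = 0.0516), in Tkv without Tkv A, wild type B or wild type C (up to 0.0881) and in wg without wg A, wild type B or wild type C (up to 0.228). In every genotype CG13427 stayed far below GFP negative cells, whose means were 10.95, 12.04 and 10.53 in the 3 sets.

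CG12581 was called lower in 5 genotypes of set 2. Its wild type values were 6.33, 6.62 and 6.67. It measured 5.28, 5.64 and 5.82 in Arm (-0.96 ± 0.23 SE, adjusted p = 0.0127), 5.19, 5.50 and 5.72 in Arm+Ras (-1.07, adjusted p = 0.012), and 5.29, 5.68 and 5.71 in Pnt (-0.98, adjusted p = 0.00811). Ras gave 5.48, 5.71 and 5.80 (-0.88, adjusted p = 0.0312) and wg 5.11, 6.05 and 6.07 (-0.80, adjusted p = 0.0131). No array of these 5 genotypes reached the lowest wild type array. The call was lost in Arm without Arm B, wild type A or wild type B (adjusted p up to 0.0796) and in wg without wg C or wild type A (up to 0.106), where the difference without wg C was -0.48. In set 1 the differences were -0.22, -0.06 and -0.08 in EGFR, FGFR and spi, and none was called.

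CG15480 separated the genotypes of set 2. Wild type arrays measured 6.16, 6.29 and 6.64, and Ras, Tkv and wg stayed near them with means of 6.34, 6.47 and 6.32. Arm arrays were lower at 5.44, 5.59 and 5.71 (-0.78 ± 0.15 SE, adjusted p = 0.00144). Arm+Ras arrays were at 5.50, 5.53 and 5.59 (-0.82, adjusted p = 0.00205) and Pnt arrays at 5.21, 5.37 and 5.56 (-0.98, adjusted p = 8.5e-05). All 3 of these groups lay below every wild type array. In set 1 spi mutants were lower, at 5.75, 5.88 and 6.14 against 6.64, 6.87 and 6.96 (-0.90 ± 0.16 SE, adjusted p = 0.00658). All 4 calls held without any 1 array.

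CG11069, which encodes an ABC transporter of the ABCG type, was below wild type in all 12 genotypes, with a median difference of -1.67, and did not overlap it in 10 of them. It was called in 4, all in set 2, where wild type measured 5.78, 5.92 and 6.09. The wg arrays were at 3.35, 3.44 and 3.89 (-2.37 ± 0.53 SE, adjusted p = 0.00152), a call that held without any 1 array. Arm arrays were at 3.55, 3.61 and 4.38 (-2.08, adjusted p = 0.017), Tkv arrays at 2.97, 4.14 and 4.68 (-1.997, adjusted p = 0.0197) and Pnt arrays at 2.82, 3.49 and 5.26 (-2.07, adjusted p = 0.0137). Genotype arrays of CG11069 scattered widely, with an SD of 1.26 in Pnt against 0.16 in wild type. The calls were lost without Arm A, Arm B or wild type A in Arm (adjusted p up to 0.0753), without Pnt A, Pnt C or wild type A in Pnt (up to 0.102), and without Tkv B or any 1 wild type array in Tkv (up to 0.119).

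CG4440 and CG10005 were called lower in 3 genotypes each. CG4440, the brightest of these genes, measured 10.72, 10.80 and 10.85 in Pnt (-0.60 ± 0.11 SE, adjusted p = 0.000914) and 10.81, 10.91 and 10.94 in Arm+Ras (-0.50, adjusted p = 0.0152), against 11.14, 11.48 and 11.55 in wild type. It was also lower in spi, by a small margin, at 10.04, 10.15 and 10.20 against 10.34, 10.40 and 10.63 (-0.33, adjusted p = 0.0355). CG10005 was lower in Pnt (-0.85, adjusted p = 0.0234), Tkv (-0.89, adjusted p = 0.0187) and wg (-0.92, adjusted p = 0.00469), from wild type values of 5.40, 5.60 and 5.77. None of these groups overlapped its wild type. The call of CG10005 was lost in Tkv without Tkv A, Tkv C or wild type B (adjusted p up to 0.0985) and in Pnt without Pnt A, Pnt C, wild type A or wild type B (up to 0.144). The call of CG4440 was lost in Arm+Ras without Arm+Ras A, Arm+Ras C, wild type B or wild type C (up to 0.106) and in spi without 5 of the 6 arrays in turn (up to 0.127).

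**Figure D4:**
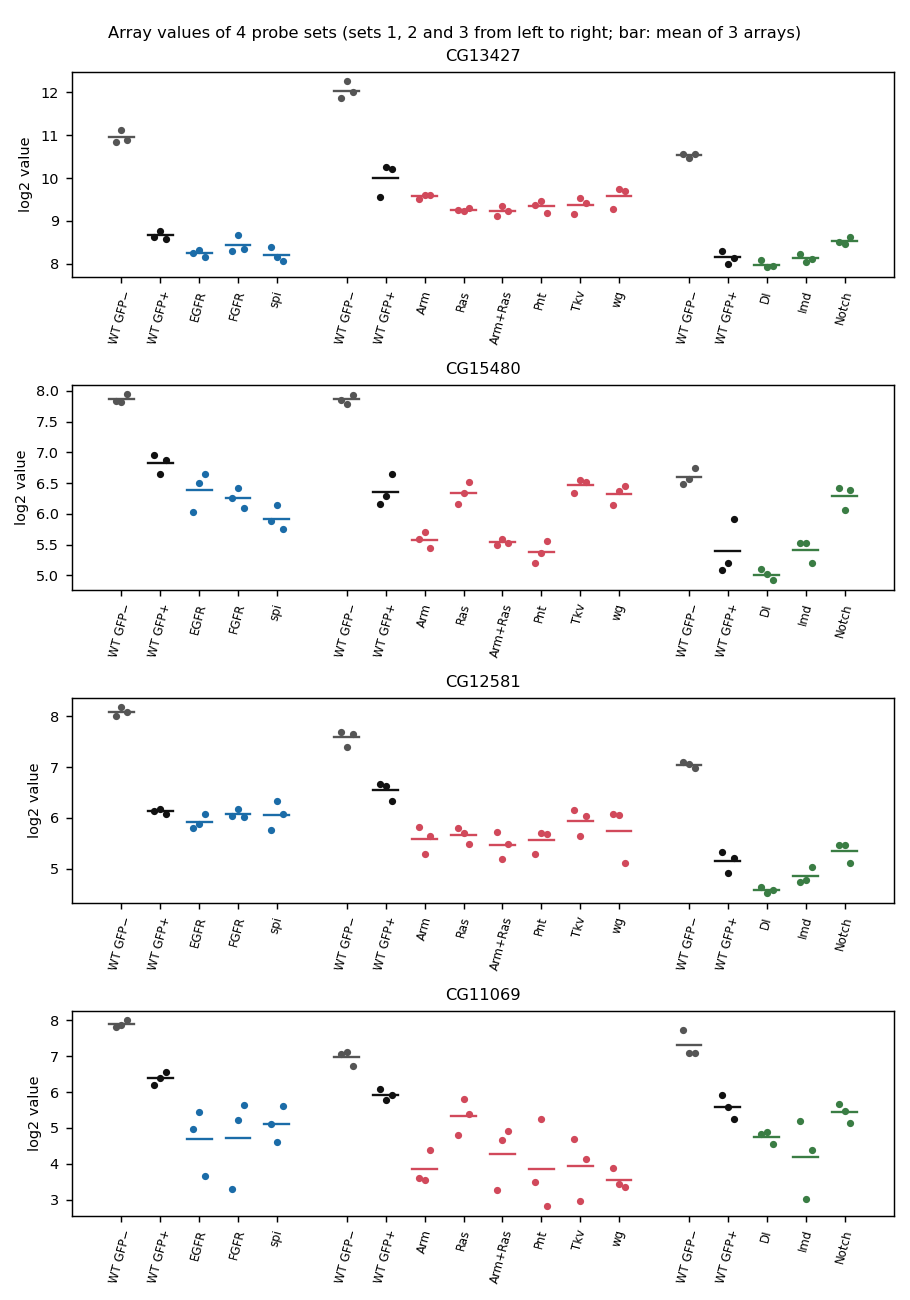
Log2 values of every array for CG13427, CG15480, CG12581 and CG11069 in the 18 groups, with wild type GFP negative (grey), wild type GFP positive (black) and genotypes (coloured) of sets 1, 2 and 3 from left to right. Bars are means of 3 arrays; the genotype arrays of all 4 genes lie below the GFP negative arrays of their set, and CG11069 scatters more in genotypes than in wild type.

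Among the genotypes against wild type, loss of wg gave the most rises, with 7 called higher and 7 lower (9.33% each). Over all probe sets 11% were higher and 15.5% lower in this comparison, so neither count of calls was above the background. CG5727 rose from 5.33, 5.37 and 5.45 in wild type to 7.37, 7.40 and 7.46 (2.03 ± 0.21 SE, 4.08-fold, adjusted p = 1.3e-07). CG33941 rose from 6.18, 6.78 and 7.002 to 8.71, 8.81 and 9.05 (2.20 ± 0.22 SE, 4.6-fold, adjusted p = 5.92e-08). CG15345 rose from 2.42, 3.22 and 4.27 to 5.94, 6.39 and 6.40 (2.93 ± 0.48 SE, adjusted p = 5.81e-05). In all 3 genes every wg array lay above every wild type GFP positive array.

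The wg levels of CG5727 and CG15345 were close to those of GFP negative cells. Every wg array of CG33941 lay below every GFP negative array, which were at 9.33 to 9.49. The GFP negative means in set 2 were 7.25 ± 0.23 (SD, n = 3) for CG5727, against 7.41 ± 0.04 in wg. For CG15345 they were 6.37 ± 0.32 against 6.24 ± 0.26, and for CG33941 9.38 ± 0.09 against 8.86 ± 0.18. CG15098 rose from 5.05, 5.16 and 5.24 to 6.29, 6.34 and 6.56 (1.25 ± 0.25 SE, adjusted p = 0.000477), about midway to its GFP negative mean of 7.66. CG3349 rose from -0.52, -0.51 and 2.20 to 3.25, 3.40 and 3.93 (3.14 ± 0.85 SE, adjusted p = 0.00789). Its wild type array at 2.20 lay far above those at -0.52 and -0.51. The calls of these 5 genes held without any 1 array.

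CG18190, a gene of the EB1 family of microtubule plus end proteins, rose in wg by 0.93 ± 0.26 SE (adjusted p = 0.00839) and CG14135 by 1.20 ± 0.41 SE (adjusted p = 0.034). Neither overlapped wild type, and the call of CG14135 was lost without any array but wild type C (adjusted p up to 0.117). Beside CG11069, the falls in wg were led by CG17672, at 1.06, 1.42 and 2.27 against 3.27, 3.93 and 4.19 (-2.22, adjusted p = 0.0299). CG9471, a biliverdin reductase gene by its RefSeq synonym, fell from 5.26, 5.74 and 6.12 to 3.80, 3.89 and 4.22 (-1.73, adjusted p = 0.00859), and held without any 1 array. CG7730 fell from 2.50, 2.62 and 3.43 to 0.65, 1.16 and 1.55 (-1.73, adjusted p = 0.0386). The call of CG7730 was lost without any array but wg B (adjusted p up to 0.152), and that of CG17672 without wg A, wg C, wild type A or wild type B (up to 0.101).

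In the wg arrays the RNA controls also stood apart from wild type. The 3′ minus 5′ difference was 3.29 to 3.59 against 2.01 to 2.24 for eIF-4a, 0.53 to 1.49 against 0.14 to 0.19 for GAPDH and 1.38 to 1.39 against 0.88 to 1.00 for actin. The hybridization controls were at 10.79 to 11.10 against 9.01 to 9.49. The mesoderm markers were lower as well, at a mean level of 5.61 to 5.92 in wg arrays against 6.32 to 6.44 in wild type, with 2 of 7 called lower and none higher. Ectoderm and epidermis markers averaged 4.24 to 4.71 in wg arrays against 5.05 to 5.16 in wild type, with 0 of 9 called higher and 2 lower. Of 10 neural markers 1 was called higher and 3 lower, and of 4 endoderm markers 2 were called lower. The part of the RNA controls and of these markers in the wg results was not tested.

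**Figure D5:**
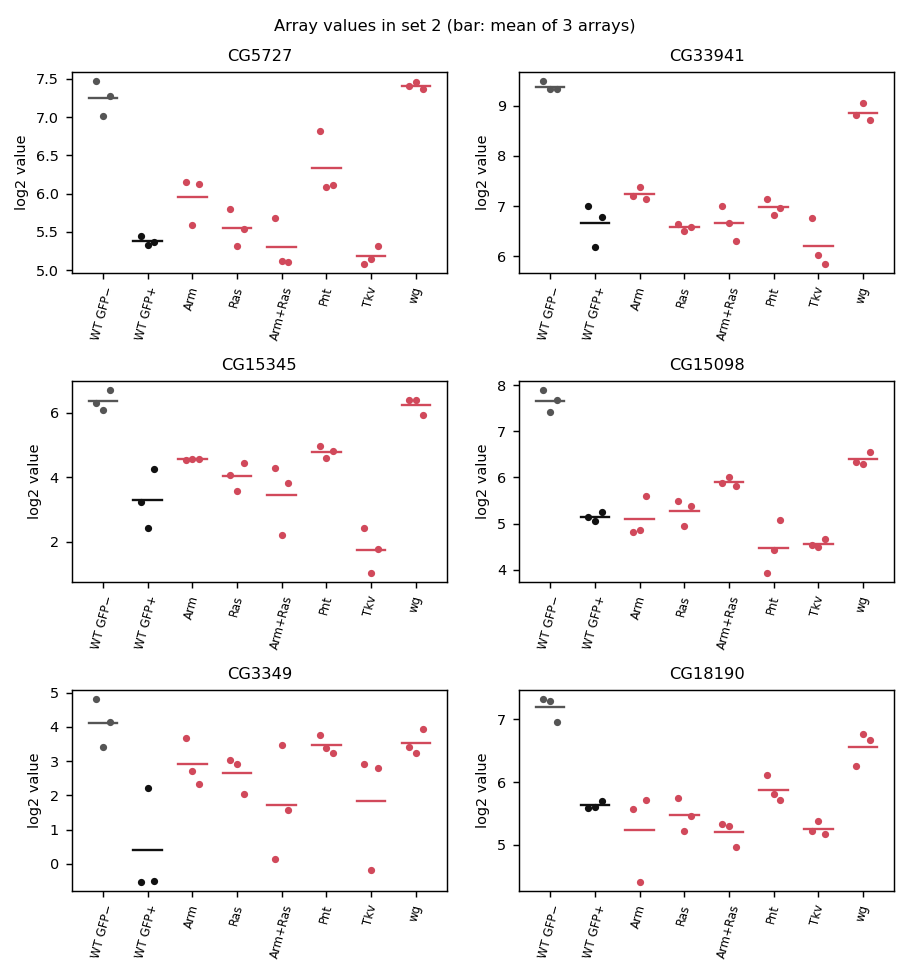
Log2 values of every array in set 2 for 6 genes that rose in wg mutants, with wild type GFP negative (grey), wild type GFP positive (black) and genotypes (red); bars are means of 3 arrays. The wg arrays of CG5727 and CG15345 lie at the level of GFP negative cells, while Tkv arrays of CG15345 lie at or below the lowest wild type GFP positive array.

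Activated Pnt, an ETS factor downstream of Ras, gave 11 falls and 2 rises. That was 14.7% of the 75 lower against 4.98% of all probe sets, and 2.67% higher against 3.87%. Among the 172 CG probe sets chosen by sets 1 and 3 alone, 16 were lower (9.30%) and 2 higher. Of the 200 depleted probe sets without a CG symbol, 36 were lower in Pnt and 3 higher. Their share lower was larger than that of the 75, so the excess of falls was not particular to genes with a CG symbol. CG9184 fell from 5.54, 5.83 and 6.19 to 4.33, 4.57 and 4.89 (-1.26 ± 0.19 SE, adjusted p = 0.00012). CG6398 fell from 5.44, 5.55 and 5.98 to 1.76, 4.30 and 4.44 (-2.16 ± 0.44 SE, adjusted p = 0.00233), and its call held without any 1 array, although Pnt arrays differed widely. CG9628 fell from 5.10, 5.15 and 5.23 to 1.75, 2.81 and 4.34 (-2.19, adjusted p = 0.0169). CG7997, an alpha-galactosidase gene, fell from 5.94, 5.99 and 6.08 to 3.72, 4.88 and 5.02 (-1.46, adjusted p = 0.0463). All 4 genes were below every wild type array.

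The rises in Pnt were CG5727, from 5.33, 5.37 and 5.45 to 6.08, 6.12 and 6.82 (0.96 ± 0.21 SE, adjusted p = 0.0043), which held without any 1 array, and CG3349, to 3.24, 3.40 and 3.76 (3.07 ± 0.85 SE, adjusted p = 0.0248). Both were also higher in wg mutants, a comparison with the same wild type arrays. The ectoderm and epidermis list was lower in Pnt too, at 3.64 to 3.93 against 5.05 to 5.16, with 5 of 9 markers called lower, none higher and a median of -1.52. The GAPDH control was at -1.14 to -0.45 against 0.14 to 0.19 and the actin control at 1.16 to 1.27 against 0.88 to 1.00. The hybridization controls were at 9.955 to 10.305 against 9.01 to 9.49. The part of these markers and controls was not tested. The Pnt count was 8 without wild type A. The call was lost for CG9628 without Pnt A, Pnt C, wild type A or wild type B (adjusted p up to 0.11), for CG7997 without any array but Pnt C (up to 0.23) and for CG3349 without any array but wild type B (up to 0.13).

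Activated Arm, the fly beta-catenin of the Wingless pathway, gave 6 falls and no rise (8.00% lower against 4.37% of all, and 0 against 2.55% higher). Among the 172 probe sets chosen by the other sets there were 13 falls (7.56%) and 2 rises. The 200 depleted probe sets without a CG symbol had 17.0% lower and 0 higher. CG2201, a choline and ethanolamine kinase gene, fell from 4.91, 4.98 and 5.05 to 3.00, 3.71 and 4.22 (-1.34 ± 0.26 SE, adjusted p = 0.00227) and its call held without any 1 array. CG7997 fell to 2.88, 4.93 and 5.09 (-1.70, adjusted p = 0.0231), mostly through 1 array. Without Arm B its difference was -0.99 (adjusted p = 0.153), and the call was also lost without any 1 of the 3 wild type arrays. The other falls were CG7102, CG11069, CG12581 and CG15480. Ectoderm and epidermis markers averaged 4.35 to 4.78 against 5.05 to 5.16 with 1 of 9 called lower, neural markers 4.87 to 5.03 against 5.28 to 5.98 with 4 of 10 called lower. The actin control was at 1.14 to 1.22 against 0.88 to 1.00 and the hybridization controls at 9.61 to 10.22 against 9.01 to 9.49. The part of these shifts was not tested.

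CG7102 is represented by a brighter and a dimmer probe set. The brighter was lower in Arm, at 3.99, 4.61 and 5.35 against 5.73, 5.85 and 5.93 (-1.19 ± 0.23 SE, adjusted p = 0.00223), and in Pnt, at 4.62, 4.70 and 4.74 (-1.15, adjusted p = 0.00204). The dimmer differed by -1.07 and -1.89 there without a call. The dimmer was called in Arm+Ras, at 1.02, 2.35 and 2.43 against 4.07, 4.46 and 4.595 (-2.44 ± 0.59 SE, adjusted p = 0.0283), where the brighter differed by -0.56 without a call. Both probe sets thus had the same sign in these 3 genotypes, as they did in FGFR, spi, Ras, Tkv and wg. In EGFR, Dl, lmd and Notch their signs differed, without a call. There the dimmer differed by -0.13, -1.41, -1.40 and -0.72, and the brighter by 0.03, 0.08, 0.59 and 0.01. The Arm+Ras call was lost without any array but Arm+Ras A (adjusted p up to 0.172).

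Activated Ras, the transducer of EGFR and FGFR signals, gave 4 falls and no rise (5.33% against 2.12% lower, and 0 against 2.47% higher). The falls were CG13427, CG12581, CG13454 and CG7730. Among the 172 probe sets chosen by sets 1 and 3 alone, 7 were lower (4.07%) and 1 higher. The 200 depleted probe sets without a CG symbol had 6.5% lower and 1.0% higher. CG7730 went from 2.50, 2.62 and 3.43 to -0.12, 0.50 and 0.69 (-2.49 ± 0.60 SE, adjusted p = 0.0166), a call lost without Ras B or wild type A (adjusted p up to 0.0824). CG13454 went from 5.52, 5.73 and 5.79 to 4.62, 4.95 and 4.97 (-0.84, adjusted p = 0.035). The calls of CG13454 and of CG12581 in Ras were each lost without 5 of the 6 arrays in turn, all but wild type A and wild type C respectively (adjusted p up to 0.152 and 0.133). The count of calls was 2 without Ras A or Ras C and 1 without Ras B. The GAPDH control was at -0.06 to 0.02 in Ras against 0.14 to 0.19 in wild type and the actin control at 0.68 to 0.82 against 0.88 to 1.00, and 1 of 7 mesoderm markers was called higher, with a mean level of 7.03 to 7.19 against 6.32 to 6.44. Their part in the Ras falls was not tested.

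Arm and Ras together gave 5 falls and no rise (6.67% against 1.05% lower, and 0 against 1.37% higher). These were CG13427, CG15480, CG12581, CG4440 and the dimmer probe set of CG7102. Among the 172 probe sets chosen by the other sets there were 7 falls (4.07%) and no rise. The 200 depleted probe sets without a CG symbol had 7.0% lower and 0.5% higher. The call of CG12581 was lost without Arm+Ras B, wild type A or wild type B (adjusted p up to 0.0837). The count was 3 without Arm+Ras B, Arm+Ras C or wild type C and 2 without wild type B. Ectoderm and epidermis markers averaged 5.0 to 5.18 against 5.05 to 5.16 and had no call. The hybridization controls were at 9.76 to 9.90 against 9.01 to 9.49 and mesoderm markers at 7.004 to 7.18 against 6.32 to 6.44, and the part of both was not tested.

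Activated Tkv gave 6 falls and 1 rise (8.00% against 3.95% lower, and 1.33% against 4.43% higher). Among the 172 probe sets chosen by sets 1 and 3 alone, 8 were lower (4.65%) and 1 higher. In that list the share lower was thus near that of all probe sets. The 200 depleted probe sets without a CG symbol had 9.0% lower and 4.0% higher. CG9184 fell to 4.67, 4.77 and 5.19 from 5.54, 5.83 and 6.19 (-0.98 ± 0.19 SE, adjusted p = 0.00219), which held without any 1 array. CG13454 fell to 4.50, 4.92 and 5.15 from 5.52, 5.73 and 5.79 (-0.82, adjusted p = 0.0255), a call lost without Tkv A, Tkv B, wild type B or wild type C (adjusted p up to 0.154). CG15345 fell to 1.04, 1.77 and 2.42 from 2.42, 3.22 and 4.27 (-1.56, adjusted p = 0.0471), so the highest Tkv and the lowest wild type array nearly met. CG1172 rose from 1.59, 1.95 and 3.13 to 4.67, 4.80 and 4.93 (2.58 ± 0.70 SE, adjusted p = 0.0241), above its GFP negative mean of 4.37. The calls were lost for CG15345 without Tkv B, Tkv C, wild type A or wild type C (adjusted p up to 0.293) and for CG1172 without any array but wild type A (up to 0.122). The count was 2 without wild type B or wild type C, 3 without Tkv B and 4 without Tkv A or Tkv C. All 3 RNA controls were lower in Tkv than in wild type without overlap, with eIF-4a at 1.81 against 2.01 to 2.24, and 4 of 7 hemocyte markers were called higher. The mesoderm and the ectoderm and epidermis markers each had 1 called higher, at mean levels of 6.77 to 6.89 against 6.32 to 6.44 and of 5.19 to 5.29 against 5.05 to 5.16, and 1 of 6 germ cell markers was called lower. The part of these was not tested.

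In set 1 the 2 activated receptors raised the same gene. CG7768, a cyclophilin-type peptidyl-prolyl isomerase gene, measured 3.10, 4.07 and 4.87 in wild type, 5.61, 5.78 and 5.79 in EGFR (1.71 ± 0.36 SE, adjusted p = 0.0207) and 5.47, 5.89 and 5.96 in FGFR (1.76 ± 0.36 SE, adjusted p = 0.02). Every array of both genotypes was also above the GFP negative arrays, which lay at 4.59 to 5.23. EGFR and FGFR share the wild type arrays, which ran from 3.10 to 4.87. It was the only call among the 75 in each (1.33% higher, against 1.3% of all in EGFR and 1.23% in FGFR, and none lower against 1.43% and 0.974%). The EGFR call was lost without any array but wild type B (adjusted p up to 0.0722) and the FGFR call without FGFR B, FGFR C, wild type A or wild type C (up to 0.0861). Without the variance trend the EGFR comparison had no call.

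Loss of spi gave 2 rises and 3 falls (2.67% higher against 1.75% of all, 4% lower against 1.43%). CG15098 rose from 4.08, 5.27 and 5.46 to 6.43, 6.55 and 6.60 (1.59 ± 0.29 SE, adjusted p = 0.00806), still 1.23 below its GFP negative mean, and the call held without any 1 array. CG12402, an F-box gene with leucine-rich repeats, rose from 0.39, 0.53 and 2.05 to 2.89, 3.76 and 4.21 (2.63 ± 0.66 SE, adjusted p = 0.0448). The falls were CG15480, CG13427 and CG4440. Among the 155 CG probe sets chosen by sets 2 and 3 alone, 4 were lower (2.58%) and 2 higher. The 200 depleted probe sets without a CG symbol had 8.5% lower and 1.5% higher. Of 10 neural markers 4 were called lower, and their mean level was 5.88 to 6.05 against 6.34 to 6.58. Mesoderm markers averaged 7.32 to 7.365 against 7.39 to 7.42, with 1 of 7 called lower. Endoderm markers averaged 4.95 to 5.24 against 4.30 to 4.87 without a call. Of 6 germ cell markers 1 was called lower, and of 7 hemocyte markers 1 was called higher. The part of these markers in the spi results was not tested. The calls of CG12402 and CG13427 were each lost without 5 of the 6 arrays in turn (adjusted p up to 0.163 and 0.148). The count was 2 without spi B, spi C or wild type C and 3 without spi A or wild type B.

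In set 3 few of the 75 were called against wild type. Loss of Dl, a Notch ligand, gave 1 fall, CG9628 from 5.17, 5.20 and 5.25 to 3.26, 3.99 and 4.24 (-1.38 ± 0.24 SE, adjusted p = 0.00528; 1.33% lower against 1.51% of all, and 0 higher against 0.859%). It held without any 1 array. Loss of lmd, a factor of fusion-competent myoblasts, gave no call in limma, against 1.03% of all called in either direction. At an unadjusted p under 0.05 there were 7 of 75 (9.33%), against 10.7% of all. Activated Notch gave 3 rises and no fall (4% against 0.422% higher, and 0 against 1.06% lower). Among the 217 probe sets chosen by sets 1 and 2 alone, which include the 75, Notch gave the same 3 rises (1.38%) and 1 fall. The 200 depleted probe sets without a CG symbol had 2.0% higher and 1.0% lower in Notch.

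The Notch rises were CG10863, CG15480 and CG13427. CG10863 rose from 2.46, 2.80 and 3.20 to 4.65, 5.08 and 5.25 (2.17 ± 0.46 SE, adjusted p = 0.0264). CG15480 rose from 5.09, 5.20 and 5.91 to 6.07, 6.39 and 6.41 (0.89 ± 0.20 SE, adjusted p = 0.0366), to just below its GFP negative arrays at 6.49 to 6.74. CG13427 rose from 8.01, 8.14 and 8.30 to 8.46, 8.51 and 8.63 (0.38 ± 0.09 SE, adjusted p = 0.0488). All 3 were lost without the variance trend and without 4 or 5 of the 6 arrays in turn, with adjusted p up to 0.124, 0.166 and 0.221, and the count was 0 without Notch A or wild type B and 1 without Notch B, Notch C or wild type C. CG10863 was also higher than wild type without a call in Dl (1.76) and lmd (1.04). In Notch the GAPDH control was at 2.49 to 2.79 against -1.63 to 0.53. In all 3 genotypes of set 3 the eIF-4a and actin controls lay above wild type without overlap (eIF-4a at 2.80 to 3.87 in lmd against 2.37 to 2.79), and the embryos were labelled 6 to 8 h old, so the genotype cannot be told apart from age or RNA quality. Of 10 neural markers 5 were called lower in Notch and none higher, with a mean level of 4.36 to 4.63 against 5.27 to 5.29. In Dl 5 were called higher and none lower, at 6.07 to 6.36, and the part of neural cells in these results was not tested.

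Genotypes of set 3 were also compared directly. The difference then takes in none of the arrays that chose the genes, but its error was estimated over all groups of the set, wild type included. Activated Notch against loss of Dl had 7 rises and no fall among the 75 (9.33% higher against 2.55% of all, 0 lower against 2.81%), and the median difference of the 75 was 0.25 against 0.01 over all. Among the 217 probe sets chosen by sets 1 and 2, which include the 75 and their 7 rises, there were 9 rises (4.15%) and no fall. The 200 depleted probe sets without a CG symbol had 8.5% higher and 6.0% lower. CG15480 measured 6.07, 6.39 and 6.41 in Notch and 4.92, 5.02 and 5.10 in Dl (1.28 ± 0.20 SE, adjusted p = 0.00111). CG13427 measured 8.46, 8.51 and 8.63 against 7.92, 7.94 and 8.09 (0.55 ± 0.09 SE, adjusted p = 0.00162). CG7296 measured 5.44, 5.50 and 5.78 against 4.26, 4.55 and 4.82 (1.03 ± 0.21 SE, adjusted p = 0.00819). In none of these 3 genes did the genotypes overlap.

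The other 4 rises were CG12581, at 5.11, 5.47 and 5.48 against 4.51, 4.58 and 4.64 (0.78, adjusted p = 0.00795), CG4440 (0.98, adjusted p = 0.0214), CG9628 (0.96, adjusted p = 0.0276) and CG6398, at 4.76, 5.10 and 5.33 against 3.50, 3.93 and 4.17 (1.20, adjusted p = 0.0291). Arrays of these genes did not overlap either. The calls of CG15480, CG13427, CG7296 and CG12581 held without any 1 array, while CG9628 was lost without Dl C or any 1 Notch array (adjusted p up to 0.106), CG4440 without Dl B, Dl C or Notch A (up to 0.0951) and CG6398 without Dl A, Dl B, Notch B or Notch C (up to 0.126). Neural markers moved the opposite way, with 7 of 10 called lower in Notch than in Dl, none higher, and a mean level of 4.36 to 4.63 against 6.07 to 6.36. The part of neural cells in the 7 rises was not tested. Both genotypes were aged 6 to 8 h. The eIF-4a and GAPDH controls overlapped between them, and the actin control was at 1.35 to 1.60 in Notch against 1.64 to 1.88 in Dl.

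Loss of lmd against activated Notch gave 2 falls, CG15480 (-0.87 ± 0.20 SE, adjusted p = 0.0236) and CG13427 (-0.40 ± 0.09 SE, adjusted p = 0.0208), and no rise (2.67% lower against 1.38% of all, 0 higher against 2.23%). Their lmd arrays, at 5.20, 5.53 and 5.53 for CG15480 and 8.05, 8.11 and 8.23 for CG13427, lay below all Notch arrays. The call was lost without Notch A, Notch C or lmd C for CG15480 and without Notch C, lmd B or lmd C for CG13427 (adjusted p up to 0.0989 and 0.0882). The count was 0 without lmd C or Notch C, 1 without Notch A and 4 without lmd A. Loss of lmd against loss of Dl had no call in limma, against 1.7% of all, and 8 of 75 (10.7%) at an unadjusted p under 0.05, against 11.7% of all, with 1 call without Dl A or lmd B and 2 without Dl B. The Notch arrays are shared by the first comparison and the one with Dl. Of 10 neural markers 4 were called higher in lmd than in Notch and none lower, at a mean level of 4.83 to 5.26 against 4.36 to 4.63. The GAPDH control was at -2.69 to 0.92 in lmd against 2.49 to 2.79 in Notch and the actin control at 1.69 to 2.12 against 1.35 to 1.60, and the part of these was not tested.

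In set 2, Pnt against Ras gave 5 falls and 2 rises (6.67% lower against 5.67% of all, 2.67% higher against 4.1%), so the shares were near the background. CG9184 measured 4.33, 4.57 and 4.89 in Pnt and 5.56, 5.88 and 5.94 in Ras (-1.20 ± 0.19 SE, adjusted p = 0.000212). CG15480 measured 5.21, 5.37 and 5.56 against 6.16, 6.34 and 6.53 (-0.96 ± 0.15 SE, adjusted p = 0.000106). CG7730 was higher in Pnt, at 2.85, 3.21 and 3.25 against -0.12, 0.50 and 0.69 (2.75 ± 0.60 SE, adjusted p = 0.00414). These 3 genes did not overlap between the genotypes and held without any 1 array. CG5727 was higher (0.79, adjusted p = 0.0179) and CG13101 lower (-1.35, adjusted p = 0.0361), each without overlap. CG9628 and CG15098 were lower with overlapping arrays, and their calls were lost without 4 of the 6 arrays in turn (adjusted p up to 0.164 and 0.24). The call of CG5727 was lost without Pnt A, Ras B or Ras C (adjusted p up to 0.124) and that of CG13101 without Pnt A, Pnt C, Ras B or Ras C (up to 0.168), and the count was 4 without Pnt A and 3 without Ras C. Markers called lower in Pnt than in Ras were 5 of 9 for ectoderm and epidermis, 4 of 10 neural, 3 of 7 hemocyte and 2 of 7 mesoderm, and none was higher. The RNA controls were apart too, with eIF-4a at 2.10 to 2.19 against 2.24 to 2.28, GAPDH at -1.14 to -0.45 against -0.06 to 0.02 and actin at 1.16 to 1.27 against 0.68 to 0.82. The part of these markers and controls was not tested.

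Arm+Ras against Ras gave 1 rise and 1 fall (1.33% each, against 0.759% higher and 0.845% lower of all). CG7730 measured 3.51, 4.23 and 4.49 in Arm+Ras against -0.12, 0.50 and 0.69 in Ras (3.72 ± 0.60 SE, adjusted p = 0.00139), where the Ras values are too low to read the difference as a fold. CG15480 measured 5.50, 5.53 and 5.59 against 6.16, 6.34 and 6.53 (-0.80 ± 0.15 SE, adjusted p = 0.00394). Both groups were far apart in both genes, and both calls held without any 1 array. The eIF-4a control was at 1.83 to 2.09 in Arm+Ras against 2.24 to 2.28 in Ras, and neural markers had a mean level of 5.62 to 5.72 against 5.77 to 5.92 with no call. Their part was not tested. EGFR against FGFR had no call among the 75 in limma, against 0.229% of all called in either direction, and 9 (12%) at an unadjusted p under 0.05, against 10.3% of all.

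Genes that neighbour each other in the genome did not share calls. In wg mutants CG5727 rose by 2.03 while CG5731, an alpha-galactosidase gene, differed by -0.16 without a call. CG15098 rose by 1.25 in wg and 1.59 in spi, where its neighbour CG15083 differed by -1.08 and 1.12 without a call. CG7296 was higher in Notch than in Dl by 1.03, and CG7294 differed by 0.25 without a call. CG13101 was called in Pnt against Ras, where CG18088 differed by -0.41 without a call. CG18088 itself, the gene with the largest mean gate difference, differed from wild type by -1.04 to 0.49 over the 12 genotypes and had no call, as did CG43332, with -1.46 to 0.58.

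Of the 17 rises against wild type GFP positive cells, 7 reached or passed the mean of the GFP negative cells of the set and 10 stayed below it. Those at or above it were CG7768 in EGFR and FGFR, CG10863 in Notch, CG1172 in Tkv, CG12402 in spi, and CG14135 and CG5727 in wg. Both reference levels were used by the rule that chose the genes, and no such share is given over all probe sets. For CG7768, CG10863 and CG12402 the wild type gates themselves overlapped in the set concerned. Reaching the GFP negative mean therefore says little for these genes. For CG1172, CG14135 and CG5727 the gates did not overlap. Only the 2 rises of CG7768 had every array above every GFP negative array. The called direction differed between genotypes for 3 genes, CG13427, CG15480 and CG15345.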

How the data were processed

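The deposited table holds log2 expression values per probe set, produced by the authors with affy, per the submitters' processing notes. The version, background correction and normalization are not given in the sources used here, and base 2 was inferred from a range of -3.08 to 13.6. Sets were not combined. Of 14010 probe sets, 44 controls were left out and 13966 tested without a filter. The table has 10 missing values, none among the 75 probe sets.

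Models were fitted per set in R 4.3.3 with limma 3.58.1 (lmFit with 1 mean per group, eBayes with a variance trend), with two-sided p-values adjusted by the Benjamini-Hochberg method over all probe sets and called under 0.05. Python 3.11.15, pandas 2.3.3, numpy 2.4.6 and matplotlib 3.10.9 made the tables and figures. The fits were tested on simulated data. The number of arrays limits the precision.

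The genes, marker lists and comparisons were chosen with earlier results of these data known. Named genes are the 12 with the largest least gate difference, 4 on either side of the threshold, up to 4 rises and 4 falls per comparison among calls without overlapping arrays, those called in most genotypes, genes with 2 probe sets and genome neighbours. CG2604, CG30467 and other probe sets were named after their values were seen. Symbols and neighbours follow the platform annotation and RefSeq (Release 6 plus ISO1 MT). No label says what the letters share and not every same-letter pair correlated over 0.1, so letters were not used as pairs. The main p-values therefore take no account of any deviation shared by letter. Alternatives were no variance trend, a replicate block, quantile normalization, brighter probe sets only, each array left out, genes chosen by 2 sets, and no letter A arrays. RNA levels of N, Dl, arm, pnt, wg, Ras85D and stumps are not reported here.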

Additional observations from a re-analysis of the deposited data

How the results depend on the processing

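Values here are numbers of calls among the 75 probe sets. Quantile normalization within the set left all 21 counts within 1.5 times and kept 76 of the 78 calls in genotype comparisons, all but CG4440 in Arm+Ras and CG15098 in Pnt against Ras. Without the variance trend 20 of the 78 were lost, and the counts became 0 for EGFR, 2 for spi, 0 for Notch, 3 for Notch against Dl and 0 for lmd against Notch. With the replicate letter as a block all 78 were kept, and the counts became 2 for EGFR, 3 for Dl, 1 for lmd, 1 for lmd against Dl and 5 for lmd against Notch. Deviations from the group means of same-letter arrays had a median correlation of 0.025, 0.017 and 0.040 in sets 1, 2 and 3, with 0 of 30, 3 of 84 and 10 of 30 pairs over 0.1. Arrays of different letters had medians of -0.013, -0.009 and -0.053. Of 15, 24 and 15 arrays, 11, 18 and 10 correlated best with their own letter, a hint from the data that some deviation is shared by letter. Among brighter probe sets only, the counts were 2 for EGFR, 2 for FGFR, 3 for Dl, 1 for Arm+Ras against Ras, 1 for lmd against Dl and 27 for the gate in set 1, where fewer probe sets were tested. Without the letter A arrays, an alternative chosen after seeing the data, 44 of the 78 were lost and the counts were 0 for EGFR, 0 for FGFR, 1 for spi, 3 for Arm, 2 for Ras, 7 for Pnt, 2 for Pnt against Ras and 1 for lmd against Dl, with 2 arrays a group. Among CG probe sets chosen by the other 2 sets, longer lists that include the 75, the counts were 15 for Arm, 8 for Ras, 33 for wg and 3 for Dl. Except where the number of arrays or probe sets fell or the list grew, the cause was not tested. No call changed its direction under these alternatives.

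Leaving out 1 array in turn gave 0 to 1 calls for EGFR, 0 to 1 for FGFR, 2 to 5 for spi, 4 to 7 for Arm, 1 to 4 for Ras, 2 to 4 for Arm+Ras, 8 to 13 for Pnt, 2 to 8 for Tkv, 11 to 16 for wg, 1 to 2 for Dl, 0 to 1 for lmd and 0 to 2 for Notch. It gave 0 for EGFR against FGFR, 3 to 7 for Pnt against Ras, 2 for Arm+Ras against Ras, 5 to 7 for Notch against Dl, 0 to 2 for lmd against Dl and 0 to 4 for lmd against Notch. For the gate tested in the set left out of the choice it gave 31 to 38 in set 1, 23 to 30 in set 2 and 14 to 20 in set 3. Of the 78 calls 35 were kept without any 1 array, and none changed direction. Signal over background was not checked for dim probe sets.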
